A study of Mus musculus with 9 samples.

Results

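This account describes 10 genes of mouse cardiosphere-derived cells: the interleukin-6 (IL-6) family ligands Il6, Il11, Lif and Clcf1, the receptor genes Il6st and Osmr, the signalling genes Stat3 and Socs3, and the cytokine gene Il33 with its receptor gene Il1rl1. They were chosen by name, with earlier results of these data known, each matching 1 of the 54532 genes in the deposited table. RNA-seq was performed on 9 libraries in 3 groups of 3. The pECDC libraries came from primary cells grown out of the epicardium of 6-week C57BL/6 hearts through a cardiosphere stage (passage 3 by the study's methods, titled P0 in the labels). The iECDC libraries came from the same kind of cell immortalized with a lentivirus carrying human telomerase (hTERT), selected with puromycin and taken at passage 30, so that transduction, selection and passage number cannot be told apart. The SB431542 libraries were exposed to SB431542, an inhibitor of the transforming growth factor-β (TGF-β) type I receptor kinase. For these the labels give passage 30 immortalized cells treated for 3 days. The study's text describes an epithelial clone derived from pECDCs, with SB431542 at 10 µM and a time of 10 days. It does not state whether that clone is the source of these libraries. Whether iECDC or pECDC is the matching untreated group therefore depends on which account applies. By the labels, SB431542 and pECDC also differ in transduction, selection and passage number, which cannot be told apart there from the inhibitor. Both comparisons are given, and counts of genes used to check the labels follow below. The study's methods call its replicates biological, but no label ties the libraries of a group to separate cultures or animals, so the p-values below measure only the spread between these libraries, which may be technical.

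IL-6 family cytokines bind a ligand-specific receptor chain and then the shared subunit encoded by Il6st, which activates Janus kinases and the transcription factor STAT3. STAT3 induces Socs3, whose product blocks the same receptor complex. In the heart these cytokines act on fibroblasts and cardiac myocytes, whereas IL-33 is a nuclear alarmin released by damaged cells and sensed through ST2, the product of Il1rl1. The cardiosphere medium of the study contained cardiotrophin-1, itself a member of the IL-6 family. The cells were afterwards passaged in another medium, whose listed components do not include it.

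Deposited counts summed to between 16568306 and 23951392 per library. Cdkn2a, a senescence gene used here to check the labels, had 550, 407 and 562 counts in pECDC, 0, 1 and 0 in iECDC and 0, 0 and 0 in the SB431542 libraries. Barx1, used in the same way, had 369, 349 and 385, then 1, 1 and 0, and then 0, 1 and 0 counts. In both genes the SB431542 libraries had the level of iECDC, the kind of cell named in their labels, and not that of pECDC. An 8-gene TGF-β response list summed to 1647 to 1694 FPKM in pECDC and 2100 to 2499 in iECDC, and to 115, 324 and 130 in SB431542 replicates 1, 2 and 3 (FPKM: fragments mapped to a gene, scaled by its length and by the depth of the library). SB431542 replicate 2 and iECDC replicate 3 stood apart from the rest of their groups, with a chi-square per degree of freedom of 70.3 to 71.5 and of 24.9 to 30.8 against the other libraries, where other pairs gave 2.70 to 4.61. Fibroblast markers summed to 702 to 1304 FPKM over all libraries. Col1a1 and Col1a2 made up most of these sums (mean FPKM 647 and 268 in pECDC). Thy1 and Pdgfra had means of 122 and 15.6 in pECDC. Dcn, Tcf21 and Postn were far lower, at 0.768, 0.731 and 0.0424 in pECDC and 0.470, 0.516 and 0.0615 in iECDC. With SB431542 their means were 13.2, 1.43 and 0.00437. Epithelial and mesothelial markers summed to 18.7 to 19.9 in pECDC, 29.0 to 31.6 in iECDC and 24.9 to 39.9 in the SB431542 libraries. Krt19 made up most of the epithelial and mesothelial sums (mean FPKM 19.0 in pECDC, 30.0 in iECDC and 28.0 with SB431542). It did not pass in either SB431542 comparison. Of the epithelial and mesothelial markers, the mesothelial genes Upk3b (4, 8 and 9 counts in iECDC and 72, 97 and 87 with SB431542, log2 fold change 3.45, edgeR adjusted p = 0.000912) and Wt1 (2, 2 and 0 and then 43, 14 and 39 counts, adjusted p = 0.00615) were higher with SB431542 than in iECDC, and also than in pECDC (adjusted p = 0.000160 and 0.0257). The mesothelial genes Lrrn4 (mean 0.110 FPKM in iECDC and 0.101 with SB431542) and Msln (0.0756 and 0.276) were not tested. Krt8, Krt18, Cdh1 and Epcam had mean FPKM of at most 0.0561 in each group. The part of all these markers in the results below was not tested. The 7 macrophage markers summed to 11.2 to 17.7 FPKM. Adgre1 had 0 counts in every library, Itgam had 0 in all but SB431542 replicate 2 (1 count), and Ptprc had 0 to 4. Csf1r, Cd14, Lyz2 and Cd68 had counts in all libraries. Csf1r had a mean of 5.41 FPKM in pECDC, 5.17 in iECDC and 5.99 with SB431542, and Cd14 of 4.84, 4.84 and 8.40. Lyz2 (0.496, 2.95 and 1.51) was higher in iECDC than in pECDC (log2 fold change 2.55, SE 0.211, edgeR adjusted p = 9.39e-05). The mast cell and lymphoid markers summed to 0.250 to 0.883, and the endothelial markers to 0.0401 to 0.168.

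In iECDC compared with pECDC, 6 of the 10 genes passed the test, with Il11, Lif, Osmr, Socs3 and Il33 lower and Clcf1 higher. Over all 13752 genes tested in that comparison 16.4% passed (7.21% higher and 9.21% lower). In SB431542 compared with iECDC, 8 of 9 tested genes passed, the 4 ligand genes lower and Il6st, Osmr, Socs3 and Stat3 higher, where 30.0% of 13559 genes passed (16.0% higher and 14.0% lower). In SB431542 compared with pECDC, 9 of 10 passed, the 4 ligand genes and Il33 lower and the same receptor and signalling genes Il6st, Osmr, Socs3 and Stat3 higher, where 34.8% of 14015 genes passed (17.9% higher and 17.0% lower). These counts depended on single libraries: in the first comparison 3, 3 and 2 members passed without pECDC replicate 1, 2 or 3 and 9 without iECDC replicate 3, in the second 5 passed without iECDC replicate 1 or 2, and in the third 5 passed without pECDC replicate 1. Regardless of direction, the median log2 fold change of the tested members was 0.40, 1.08 and 0.79 in size, and it was 0.17, 0.34 and 0.30 for all genes tested. The libraries of the groups did not overlap for 7, 7 and 9 of the tested members in these comparisons, against 39.9%, 46.5% and 51.5% of all tested genes. Each pair of these comparisons shares a group of libraries, and they are therefore not independent of each other. Because the members were chosen with earlier results known, the shares over all genes are a description and not a test of the set. The same holds for the gene lists below.

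**Figure D1:**
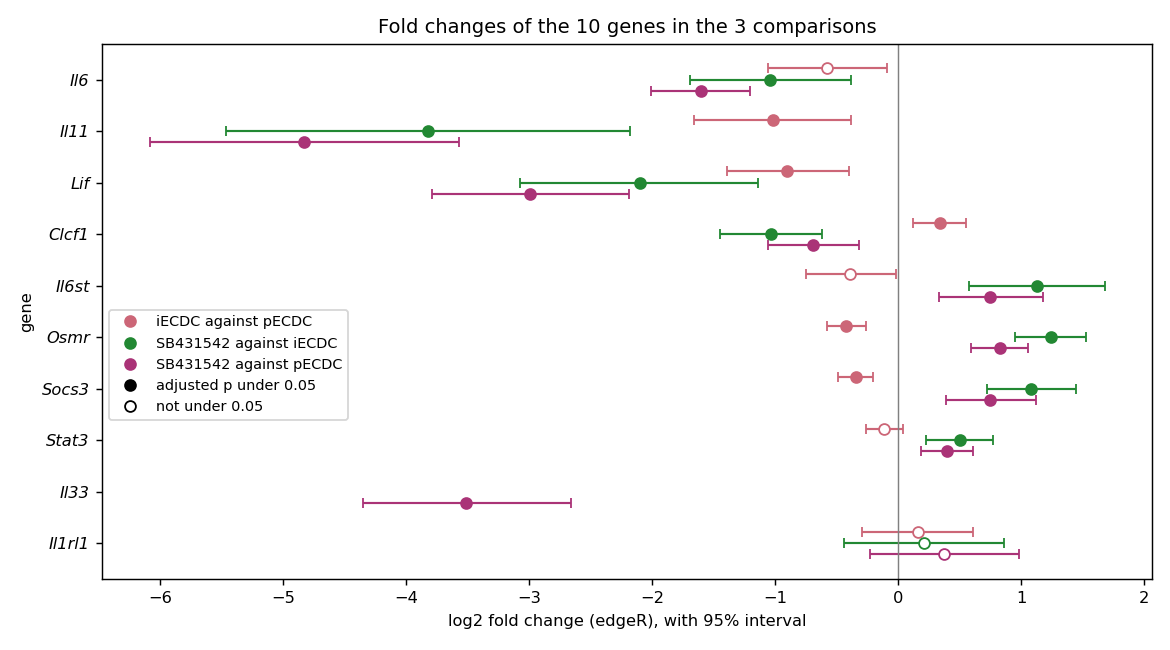
Log2 fold change (horizontal axis, edgeR) of each gene in the 3 comparisons, with 95% intervals; filled points have an adjusted p under 0.05 and open points do not. The ligand genes lie left of 0 and the receptor and signalling genes right of 0 in both comparisons with SB431542, while Il1rl1 has open points in all 3. Il33 in iECDC is given in the text as a ratio of counts, since iECDC held 4 counts in all, and its SB431542 against iECDC change was not tested.

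The sequences before the gene starts are shown for Il6, Il11 and Lif, which were lower with SB431542 and carry an AP-1 motif, and for Socs3, which was higher and carries a STAT motif. They are RefSeq sequences of build GRCm38.p6, 250 bases ending at the base before the RefSeq start, which can differ from the end of the deposited gene model, 5′ to 3′ on the strand of the gene. The Socs3 window lies inside the deposited Socs3 model, as the Il11 window shown does in that of Il11, and the last bases of the Lif window overlap the Lif model. The table matched 9 of the 10 genes, all but Clcf1, with 12 windows. The windows of Il6st, Osmr and Stat3, also higher with SB431542, held no STAT motif, and the other Il11 window held no AP-1 motif. Capitals mark the motifs found, namely the AP-1 motif TGAGTCA or its reverse complement TGACTCA, the NF-κB motif (GGG, then A or G, then 2 bases of any kind, then TTCC), and the STAT motif TTCNNNGAA, each searched on both strands and none overlapping another in these windows.
Il6, chr5:30012864-30013113, plus strand: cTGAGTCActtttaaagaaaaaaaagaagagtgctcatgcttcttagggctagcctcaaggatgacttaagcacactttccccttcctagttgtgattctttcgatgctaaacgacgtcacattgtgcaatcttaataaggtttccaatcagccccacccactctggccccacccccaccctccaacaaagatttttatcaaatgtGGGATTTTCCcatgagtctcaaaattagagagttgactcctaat
Il11, chr7:4778142-4778391, minus strand, from the downstream of its 2 annotated starts: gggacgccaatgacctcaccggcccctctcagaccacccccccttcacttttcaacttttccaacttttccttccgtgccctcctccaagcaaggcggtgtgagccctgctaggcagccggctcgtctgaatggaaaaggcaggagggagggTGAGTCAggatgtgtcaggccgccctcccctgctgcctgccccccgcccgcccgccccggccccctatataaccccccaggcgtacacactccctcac
Lif, chr11:4257318-4257567, plus strand: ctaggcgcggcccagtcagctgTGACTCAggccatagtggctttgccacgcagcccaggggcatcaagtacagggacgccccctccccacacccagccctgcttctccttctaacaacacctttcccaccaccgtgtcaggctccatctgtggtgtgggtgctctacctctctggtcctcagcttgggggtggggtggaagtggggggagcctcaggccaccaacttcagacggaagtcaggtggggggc
Socs3, chr11:117969367-117969616, minus strand: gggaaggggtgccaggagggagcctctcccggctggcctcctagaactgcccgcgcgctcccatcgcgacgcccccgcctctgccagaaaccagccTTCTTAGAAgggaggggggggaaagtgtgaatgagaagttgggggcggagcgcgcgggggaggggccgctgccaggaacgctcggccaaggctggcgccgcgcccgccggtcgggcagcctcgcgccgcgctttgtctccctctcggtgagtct
The AP-1 motif began 249 bases before the start of Il6, 98 before that of Il11 and 228 before that of Lif, and was held by 4.46% of the 32851 promoter windows of the table. The NF-κB letters GGGATTTTCC began 44 bases before the start of Il6, a motif of 2.46% of windows. The STAT letters TTCTTAGAA began 154 bases before the RefSeq start of Socs3, a motif of 7.02% of windows. The SMAD motif CAGACA, present in 17.1% of windows, had no match in the 12 windows of these genes, and TATAAA, present in 12.4%, was found in both Il33 windows. A match is a description of letters and not a measured site.

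Il6 (chr5:30013114-30019981, plus strand, GRCm38 coordinates of the deposited table, as for all genes below) encodes the founding cytokine of the family. Its FPKM was 26.0, 25.9 and 27.7 in pECDC, 22.4, 20.5 and 10.9 in iECDC, and 8.10, 6.83 and 11.1 in the SB431542 libraries. All pECDC values lay above all others, while iECDC replicate 3 fell among the SB431542 libraries. Il6 was 2.05-fold lower in SB431542 than in iECDC (log2 fold change −1.04, SE 0.284, edgeR quasi-likelihood adjusted p = 0.0283) and 3.04-fold lower than in pECDC (−1.60, SE 0.171, adjusted p = 0.00106). The difference between iECDC and pECDC did not pass (−0.58, 95% interval −1.06 to −0.09, adjusted p = 0.0995). It passed with DESeq2, without the filter on low counts, and without iECDC replicate 1 (−0.77) or replicate 3 (−0.32), with adjusted p from 1.3e-06 to 0.25 over 14 alternatives. Against iECDC, the SB431542 call was lost without iECDC replicate 1 or 2 or SB431542 replicate 1 (adjusted p of 0.105, 0.0932 and 0.0922, within 1.33e-11 to 0.105 over 15 alternatives).

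Il11 (chr7:4772373-4782857, minus strand) encodes a family member known in fibroblasts as a product of TGF-β stimulation. It had 329, 234 and 260 counts in pECDC, 152, 124 and 43 in iECDC, and 0, 17 and 7 in the SB431542 libraries, which corresponded to 6.67, 5.84 and 5.53, to 3.74, 3.75 and 1.39, and to 0, 0.402 and 0.193 FPKM. The 3 groups did not overlap, and the count of 0 in SB431542 replicate 1 allows up to 3 counts. Il11 was 14.1-fold lower in SB431542 than in iECDC (log2 fold change −3.82, SE 0.715, edgeR adjusted p = 0.00754), the largest fold change of the tested members in that comparison. It was 28.4-fold lower than in pECDC (−4.83, SE 0.532, adjusted p = 0.00120). Without SB431542 replicate 2, which had the highest Il11 and the highest TGF-β response sum of its group, these values were −4.88 and −5.89, and the part of that library's difference in them was not tested. In iECDC, Il11 was 2.02-fold lower than in pECDC (−1.02, SE 0.283, adjusted p = 0.0397), a call that was lost without any single pECDC library (adjusted p 0.105 to 0.150) or without iECDC replicate 2 (0.0527), within an edgeR, DESeq2 and limma range of 4.86e-08 to 0.208 over 14 alternatives.

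Lif (chr11:4257557-4272514, plus strand) encodes leukaemia inhibitory factor, which signals through LIFR and the shared subunit. Its FPKM was 9.99, 9.54 and 9.01 in pECDC, 6.21, 6.15 and 3.01 in iECDC, and 0.760, 1.98 and 0.789 in the SB431542 libraries. As for Il11, the groups did not overlap, iECDC replicate 3 was the lowest of its group and SB431542 replicate 2 the highest of its own. Lif was 4.30-fold lower in SB431542 than in iECDC (log2 fold change −2.10, SE 0.420, edgeR adjusted p = 0.00939) and 7.94-fold lower than in pECDC (−2.99, SE 0.338, adjusted p = 0.00132). Without SB431542 replicate 2 these values were −2.72 and −3.61. The 1.86-fold lower level in iECDC than in pECDC (−0.90, SE 0.219, adjusted p = 0.0241) was lost without any single pECDC library (adjusted p 0.0766 to 0.0974, within 7.58e-12 to 0.165 over 14 alternatives).

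Clcf1 (chr19:4214238-4223490, plus strand) encodes a cytokine that acts on the CNTF receptor. In the annotation it overlaps a protein-coding gene model on its own strand and a miRNA gene on the other, so that reads shared with them cannot be told apart. Its FPKM was 11.1, 10.7 and 11.1 in pECDC, 16.0, 13.4 and 12.5 in iECDC, and 5.21, 8.37 and 6.74 in the SB431542 libraries. It was the only 1 of the 4 ligand genes that was higher in iECDC than in pECDC, by 1.26-fold (log2 fold change 0.34, SE 0.0954, edgeR adjusted p = 0.0421). This call was lost without any single pECDC library or without iECDC replicate 1 or 2 (adjusted p 0.0648 to 0.157), within 0.000332 to 0.253 over 14 alternatives. Clcf1 was 2.05-fold lower in SB431542 than in iECDC (−1.03, SE 0.181, adjusted p = 0.00587), and the call was kept in 15 of 15 alternatives. Against pECDC it was 1.61-fold lower (−0.69, SE 0.158, adjusted p = 0.0154), which was lost without any single pECDC library (0.0543 to 0.0614, within 6.33e-08 to 0.0614 over 14 alternatives).

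**Figure D2:**
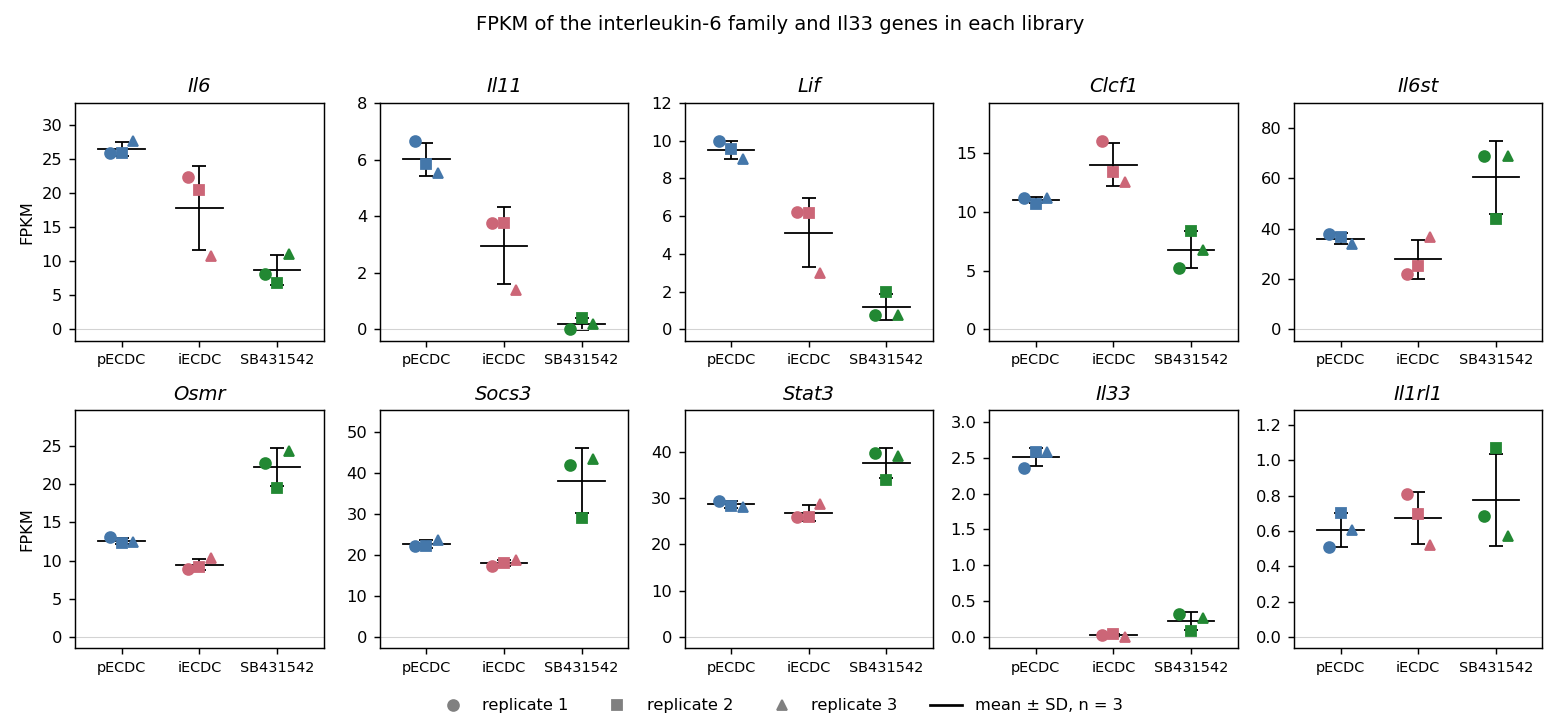
FPKM (vertical axes, each panel with its own scale) of the 10 genes in the 3 groups, with 1 marker per replicate and the mean ± SD of 3 libraries in black. Il11 and Il33 sit near 0 and Lif at 0.760 to 1.98 in the SB431542 libraries, Osmr, Socs3 and Stat3 are highest there, and Il1rl1 overlaps between all groups.

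The summed FPKM of the 4 ligand genes was 52.0 to 53.8 in pECDC and 14.1 to 18.8 in the SB431542 libraries, with 48.3, 43.7 and 27.8 in iECDC. Il6 made up 48.3 to 51.9% of this sum in pECDC, 39.1 to 46.8% in iECDC and 38.9 to 59.0% with SB431542. Lif per Clcf1, as a ratio of FPKM, was 0.810 to 0.896 in pECDC, 0.240 to 0.460 in iECDC and 0.117 to 0.236 in the SB431542 libraries, so that the 3 groups did not overlap in this ratio. Of the 12 ligand and ligand-partner genes listed for the family, 6 could be tested, and those other than the members passed in none of the comparisons. Without SB431542 replicate 2, 5 of the 6 were lower against iECDC and all 6 against pECDC. In those fits 7001 and 9188 of all genes passed in either direction, instead of 4061 and 4881. Osm, Il27, Ebi3, Il31, Ctf2 and Cntf had between 0 and 3 counts in every library.

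Il6st (chr13:112464070-112510086, plus strand) encodes the signal-transducing subunit shared by the family. Its FPKM was 37.7, 36.7 and 33.7 in pECDC, 21.9, 25.1 and 36.6 in iECDC, and 68.6, 43.6 and 68.7 in the SB431542 libraries. The SB431542 libraries were all above the rest, with replicate 2 the lowest of them, and iECDC replicate 3 fell among the pECDC libraries. Il6st was 2.19-fold higher in SB431542 than in iECDC (log2 fold change 1.13, SE 0.241, edgeR adjusted p = 0.0118) and 1.69-fold higher than in pECDC (0.75, SE 0.180, adjusted p = 0.0177). The first call was lost without iECDC replicate 1 or 2 (adjusted p 0.0565 and 0.0566, the upper end of its 15 alternatives, which began at 9e-20) and the second without any single pECDC library or without SB431542 replicate 1 or 3 (0.0578 to 0.0772, within 5.1e-12 to 0.0772 over 14). Between iECDC and pECDC the difference of −0.39 (95% interval −0.75 to −0.02) had an adjusted p of 0.136, and it passed without iECDC replicate 3 (−0.63) and without the filter on low counts, with edgeR adjusted p from 1e-06 to 0.332 over 14 alternatives.

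**Figure D3:**
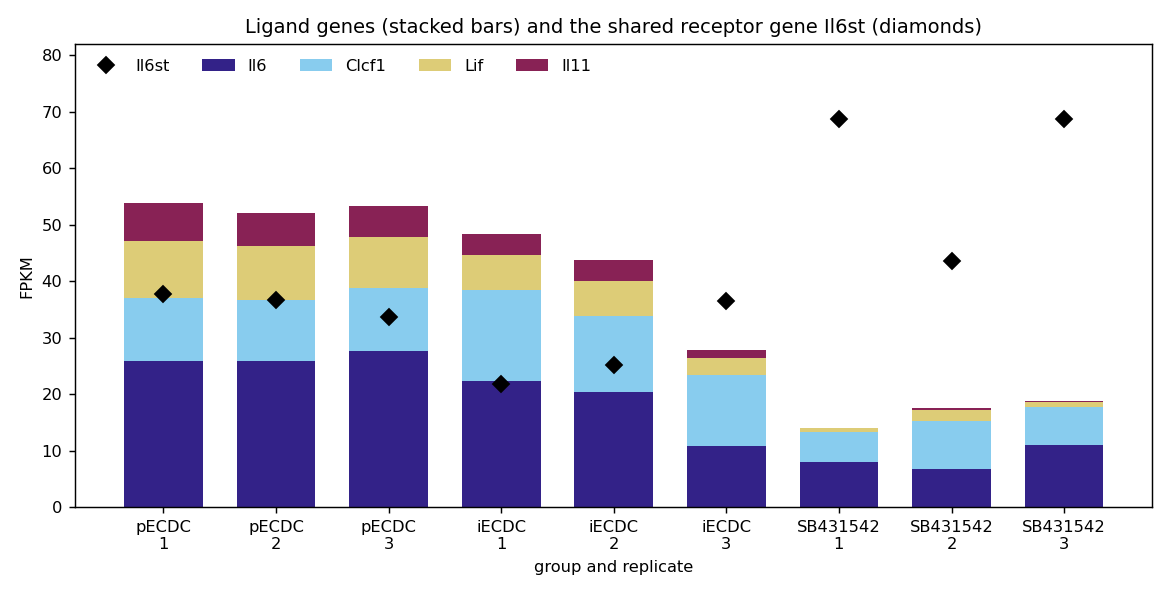
FPKM (vertical axis) of the 4 ligand genes as stacked bars and of Il6st as diamonds, in each of the 9 libraries. The diamond lies inside the bar in pECDC and in iECDC replicates 1 and 2, above it in iECDC replicate 3, and far above it in the 3 SB431542 libraries, where the bars reach 14.1 to 18.8.

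Il6st FPKM per summed ligand FPKM was 0.631 to 0.705 in pECDC, 0.452, 0.574 and 1.32 in iECDC, and 4.88, 2.48 and 3.65 in the SB431542 libraries. All SB431542 ratios were above all others.

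Osmr (chr15:6813577-6874969, minus strand) encodes the receptor chain for oncostatin M, whose gene Osm had at most 1 count in these libraries. Its FPKM was 13.0, 12.2 and 12.4 in pECDC, 8.96, 9.12 and 10.3 in iECDC, and 22.7, 19.5 and 24.4 in the SB431542 libraries. The 3 groups did not overlap, with iECDC lowest and SB431542 highest. Osmr fell 1.34-fold in iECDC (log2 fold change −0.42, SE 0.0702, edgeR adjusted p = 0.00433). In SB431542 it was 2.36-fold higher than in iECDC (1.24, SE 0.126, adjusted p = 0.000912) and 1.78-fold higher than in pECDC (0.83, SE 0.0999, adjusted p = 0.00158). All 3 calls were kept in the 14, 15 and 14 alternatives that changed the fit, while a required log2 fold change of at least 1 would leave only the call against iECDC.

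The other 5 tested receptor genes of the family, Lifr, Il6ra, Il11ra1, Cntfr and Il27ra, were also higher in both SB431542 comparisons, and none of them passed between iECDC and pECDC. With Il6st and Osmr this made 7 of 7 tested receptor genes higher with SB431542, against 16.0% and 17.9% of all tested genes, with a median log2 fold change of 1.21 against iECDC and 0.91 against pECDC. The count stayed at 7 without SB431542 replicate 2. Against iECDC it was 5 without iECDC replicate 1 or 2 and 6 without SB431542 replicate 1 or 3, and against pECDC it was 5 without any single pECDC library or without SB431542 replicate 1 or 3. Lifr, the receptor chain for leukaemia inhibitory factor, had a mean of 1.11 FPKM in pECDC, 1.10 in iECDC and 3.27 with SB431542 (log2 fold change against iECDC 1.58, SE 0.153, edgeR adjusted p = 0.000784). Cntfr, the CNTF receptor chain, rose by 1.74 on the log2 scale against iECDC (SE 0.291, adjusted p = 0.00485), from 0.491 to 1.64 FPKM. Il27ra rose by 1.21 (SE 0.224, adjusted p = 0.00739). Il6ra, the IL-6 binding chain, rose by 0.91 against pECDC (SE 0.119, adjusted p = 0.00209), from 1.70 to 3.17 FPKM. Il31ra had 0 to 2 counts and was not tested.

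Stat3 (chr11:100885098-100939540, minus strand) encodes the main transcription factor of the pathway. It overlaps Stat5a on the opposite strand, and whether strand was used in counting was not stated, so reads in the overlap cannot be told apart. Its FPKM was 29.4, 28.3 and 28.2 in pECDC, 25.8, 25.8 and 28.8 in iECDC, and 39.7, 33.9 and 39.1 in the SB431542 libraries. The SB431542 libraries lay above all others, while iECDC and pECDC overlapped. Stat3 was 1.41-fold higher in SB431542 than in iECDC (log2 fold change 0.50, SE 0.117, edgeR adjusted p = 0.0166) and 1.32-fold higher than in pECDC (0.40, SE 0.0876, adjusted p = 0.0130). The call against iECDC was lost without iECDC replicate 1 or 2 or SB431542 replicate 1 or 3 (adjusted p 0.0717 to 0.0860) and with a replicate block (all within 3.23e-10 to 0.0860 over 15 alternatives), and that against pECDC without any single pECDC library (0.0556 to 0.0675, within 1.99e-08 to 0.0675 over 14). Between iECDC and pECDC the difference was −0.11 (95% interval −0.26 to 0.04, adjusted p = 0.291), and it passed without iECDC replicate 3 (−0.16, adjusted p = 0.00700, within 0.00700 to 0.589 over 14).

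Socs3 (chr11:117966079-117970047, minus strand) encodes the feedback inhibitor of the receptor complex. Its FPKM was 22.2, 22.3 and 23.8 in pECDC, 17.4, 18.1 and 18.9 in iECDC, and 42.0, 29.0 and 43.4 in the SB431542 libraries. The groups did not overlap, and SB431542 replicate 2 was again the nearest of its group to the untreated cells. Socs3 was 1.27-fold lower in iECDC than in pECDC (log2 fold change −0.34, SE 0.0645, edgeR adjusted p = 0.00773), which was lost without pECDC replicate 3 (0.0553) and with all 9 libraries in 1 fit, with adjusted p from 0.00013 to 0.197 over 14 alternatives. It was 2.12-fold higher in SB431542 than in iECDC (1.08, SE 0.160, adjusted p = 0.00311), kept in 15 of 15 alternatives. It was 1.69-fold higher than in pECDC (0.75, SE 0.155, adjusted p = 0.0103), lost without pECDC replicate 1 (0.0505, the upper end of 14 alternatives that began at 6.04e-12) and below a log2 fold change of 1.

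Of the 8 Janus kinase and STAT pathway genes listed, 3 were lower in iECDC than in pECDC, 5 were higher in SB431542 than in iECDC and 6 were higher than in pECDC, where the shares over all tested genes were 9.21% lower, 16.0% higher and 17.9% higher. Stat5a, which shares its locus with Stat3, changed by −0.41, 1.18 and 0.78 on the log2 scale in these comparisons, and the kinase gene Jak2 by −0.56, 1.02 and 0.47 (edgeR adjusted p at most 0.00970 for each). The count of 3 became 1 without any single pECDC library, and the count of 5 became 2 to 3 without iECDC replicate 1 or 2 or SB431542 replicate 1 or 3. Of 6 tested inhibitor genes, Socs3 and Pias3 (−0.29) were lower in iECDC than in pECDC. Socs3 was the only inhibitor gene that was higher with SB431542 in either comparison. The phosphatase gene Ptpn2 was lower than in pECDC (−0.65), where 17.0% of all tested genes were lower. Without SB431542 replicate 2 the inhibitor genes higher numbered 3 against iECDC and 4 against pECDC. In those fits 7001 and 9188 of all genes passed in either direction, instead of 4061 and 4881.

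Of 16 genes listed as targets of STAT3, 2 were higher and 5 lower in iECDC than in pECDC, 8 were higher and 2 lower in SB431542 than in iECDC, and 5 were higher and 2 lower than in pECDC. Over all tested genes 7.21% were higher and 9.21% lower in the first comparison, 16.0% and 14.0% in the second and 17.9% and 17.0% in the third. Lcn2, an acute-phase iron-binding protein, had 1.99, 1.30 and 1.88 FPKM in pECDC, 0.246, 0.232 and 0.124 in iECDC, and 1.46, 1.18 and 1.29 with SB431542. The groups pECDC and SB431542 overlapped, and iECDC lay below both (log2 fold change −3.08 against pECDC, SE 0.291, edgeR adjusted p = 0.00021). Saa3, another acute-phase gene, had 5.55 to 6.01 FPKM in pECDC, 3.15 to 5.32 in iECDC, and 25.2, 9.36 and 33.4 in the SB431542 libraries (2.33 against iECDC, SE 0.434, adjusted p = 0.00736). Gadd45g, a growth arrest gene, moved the other way, with 67.0 to 68.9 FPKM in pECDC, 65.7 to 78.6 in iECDC and 18.5 to 25.2 with SB431542 (−1.76 against iECDC, SE 0.139, adjusted p = 0.000395). Without SB431542 replicate 2 the targets lower numbered 5 against iECDC and 6 against pECDC, and those higher against pECDC 8. In those fits 7001 and 9188 of all genes passed in either direction, instead of 4061 and 4881. Without iECDC replicate 3, the targets lower in iECDC than in pECDC numbered 8, in a fit where 4467 of all genes passed instead of 2258.

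**Figure D4:**
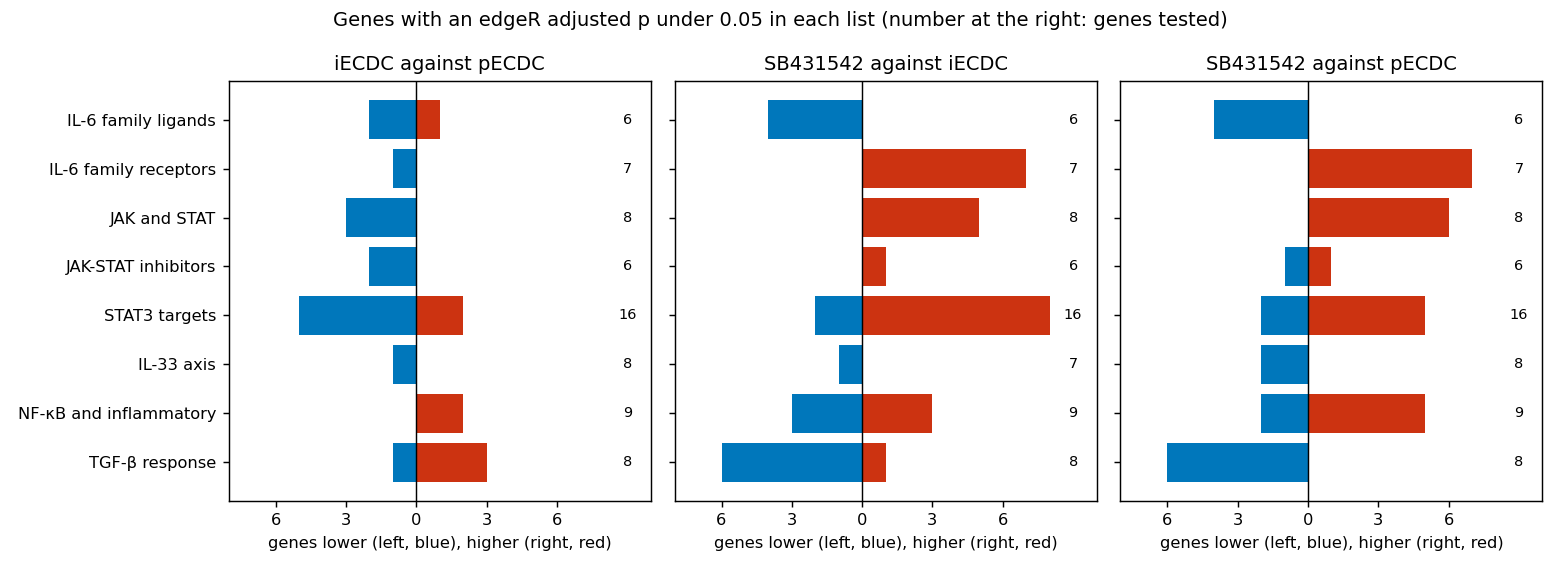
Number of genes with an edgeR adjusted p under 0.05 in each gene list (bars to the left, lower; bars to the right, higher) in the 3 comparisons, with the number tested at the right of each panel. The receptor bars reach 7 of 7 to the right in both SB431542 comparisons, the ligand bars 4 of 6 and the TGF-β response bars 6 of 8 to the left. Over all tested genes, 16.0% were higher and 14.0% lower against iECDC, and 17.9% and 17.0% against pECDC.

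The TGF-β response list, used as a check of the inhibitor, had 6 of 8 genes lower in SB431542 than in iECDC and 1 higher, and 6 of 8 lower than in pECDC. Over all tested genes 14.0% were lower and 16.0% higher against iECDC, and 17.0% were lower against pECDC. The gene that was higher was Tgfbi (log2 fold change 3.53 against iECDC, SE 0.562, edgeR adjusted p = 0.00405), which did not pass against pECDC (0.79). Pmepa1, a feedback inhibitor of TGF-β signalling, fell by 4.29 on the log2 scale against iECDC (SE 0.311, edgeR adjusted p = 0.000350). In iECDC compared with pECDC, 3 of the 8 were higher and 1 lower, with Tgfbi at −2.74 (all tested genes: 7.21% higher and 9.21% lower). Without iECDC replicate 3, 2 were lower, in a fit where 4467 of all genes passed instead of 2258.

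Il33 (chr19:29925114-29960718, plus strand) had 167, 148 and 174 counts in pECDC, 2, 2 and 0 in iECDC, and 16, 5 and 14 in the SB431542 libraries. This was 2.36, 2.58 and 2.58 FPKM in pECDC, at most 0.0422 in iECDC, and 0.316, 0.0824 and 0.268 with SB431542. The groups did not overlap, and every iECDC library lay at or under the floor of 3 counts. Scaled by library size with TMM factors, the pECDC libraries together held 94.9 times the Il33 counts of the iECDC libraries (489 against 4 unscaled counts, exact 95% interval 36.8 to 350, which covers counting error only), with an edgeR adjusted p of 5.26e-06. In bulk RNA, fewer cells that express a gene and less of its RNA per cell cannot be told apart. SB431542 was lower than pECDC by a ratio of scaled counts of 11.7 (interval 8.33 to 17.1, log2 fold change −3.51, SE 0.358, edgeR adjusted p = 0.000917). Both calls were kept in the 13 alternatives that gave a value.

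With the same scaling, the SB431542 libraries held 8.08 times the Il33 counts of iECDC (35 against 4 unscaled counts, exact interval 2.89 to 31.3). Il33 did not pass the filter on low counts in this comparison and had no test. Without that filter the edgeR adjusted p was 0.00403 (log2 fold change 2.94), and over the 7 settings that gave a value it ran from 0.000184 to 0.0913.

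Il1rl1 (chr1:40429570-40465415, plus strand), the receptor gene for IL-33, had 0.509, 0.700 and 0.609 FPKM in pECDC, 0.812, 0.697 and 0.519 in iECDC, and 0.687, 1.07 and 0.570 in the SB431542 libraries, from 55 to 155 counts. The groups overlapped in every comparison. None passed: the log2 difference was 0.16 for iECDC against pECDC (95% interval −0.29 to 0.61, edgeR adjusted p = 0.613), 0.21 for SB431542 against iECDC (−0.44 to 0.86, adjusted p = 0.605) and 0.37 for SB431542 against pECDC (−0.23 to 0.98, adjusted p = 0.296). These intervals leave room for differences of either sign. Of the other genes of the IL-33 pathway, 6 were tested, and Irak2, a kinase gene below the IL-1 receptor family, passed in both SB431542 comparisons (log2 fold change −1.52 against iECDC, SE 0.134, adjusted p = 0.000578, and −1.50 against pECDC). Il1rap, Myd88, Irak1, Irak4 and Traf6 passed in none.

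By level, the order in pECDC was Il6st (mean 36.0 ± 2.07 FPKM, SD, n = 3), Stat3 (28.6 ± 0.693), Il6 (26.5 ± 1.02), Socs3 (22.8 ± 0.914), Osmr (12.6 ± 0.408), Clcf1 (11.0 ± 0.265), Lif (9.51 ± 0.493), Il11 (6.01 ± 0.586), Il33 (2.51 ± 0.127) and Il1rl1 (0.606 ± 0.0955), and no neighbours in this order overlapped between libraries. In the SB431542 libraries Il6st (60.3 ± 14.5) led, its lowest library (43.6) lay just above the highest of Socs3 (43.4), Socs3 (38.1 ± 7.97) and Stat3 (37.5 ± 3.20) overlapped, Osmr followed at 22.2 ± 2.50, and Il6 (8.68 ± 2.19) overlapped with Clcf1 (6.77 ± 1.58). Il33 (0.222 ± 0.124) and Il11 (0.198 ± 0.201) were the lowest there and overlapped. FPKM divides by the length of each gene model, so it allows such comparisons between genes only as far as those models fit the transcripts made.

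Across the 9 libraries, the genes most like each member by Pearson correlation of log2(FPKM + 1), among 12137 genes, were Efemp1 (0.999), Itga11 (0.995) and Sema3c (0.995) for Il33. Efemp1 had mean FPKM of 12.5 in pECDC, 0.0903 in iECDC and 0.467 with SB431542. For Il11 they were Pi4k2b (0.999), Max (0.996) and Slc35g2 (0.994), and for Lif they were Max, Itga6 and the member Il11 (each 0.992). For Socs3 they were Vwa5a (0.998), Tmem176b (0.996) and Zfp503 (0.996), and Tmem176b went from 31.7 in pECDC and 21.5 in iECDC to 75.7 FPKM with SB431542. The nearest genes were Plekha4 (0.995) for Osmr, Thra (0.996) for Stat3, Hectd4 (0.990) for Il6st, Ube2e1 (0.993) for Clcf1 and Tgds (0.987) for Il6. These correlations describe 9 libraries in 3 groups, which share the differences between the groups, and have no test.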

How the data were processed

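RNA-seq of 9 mouse libraries was analysed. The deposited table held read counts per gene and FPKM, both made by the authors, with gene coordinates of GRCm38 (53499 of 54409 matched identifiers had the same start and end as in GENCODE M21). The submitters' processing notes name Bowtie2 2.0.6, TopHat2 2.0.9 and mm9; the program that counted reads and its strand setting are not given in the sources used here. The authors' fold change and p-value columns were not used. The labels and the methods name different library kits and sequencers.

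Raw counts were tested with edgeR 4.0.16 (R 4.3.3), 2 groups at a time, by quasi-likelihood with TMM scaling, filterByExpr (minimum count 10, minimum total count 15) and Benjamini-Hochberg adjustment over all genes tested, and passed at an adjusted p under 0.05. Intervals are 95%. The script was tested on simulated data. Alternatives were DESeq2 1.42.0, limma 3.58.1 on log2(FPKM + 1) and on log2(FPKM + 0.1), RLE size factors, no filter, a stricter filter of 10 or more counts in each library, 1 fit over all 9 libraries, a replicate block, each library left out in turn, and, added after seeing the data, iECDC replicate 3 and SB431542 replicate 2 left out together and the counts of each list under every setting. A required log2 fold change of at least 1 was applied to the counts of calls only and is not among the 13 to 15 alternatives given for single genes. Ratios of Il33 counts with exact intervals were also added after seeing the data.

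The 10 members and the gene lists were chosen with earlier results of these data known. All members are named; of each list up to 4 genes were eligible in each comparison, those that passed with the largest log2 fold change and whose higher group averaged 1 FPKM or more, and some of these are named. Genes named otherwise are said to be, or are given only as counts of a list or as part of the account of a whole list. Some items of the lists are not reported here.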

Additional observations from a re-analysis of the deposited data

How the results depend on the processing

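Over 29 tested results of the 10 genes, 411 alternatives were run, of which 358 left direction and call as given, 44 lost the call, 7 gained it and 2 turned the direction. Both reversals were of Il1rl1 between SB431542 and iECDC, at −0.11 without SB431542 replicate 2 and −0.26 without iECDC replicate 3 and SB431542 replicate 2, and with libraries left out that value ranged from −0.26 to 0.39. In iECDC against pECDC, 2 members and 671 genes passed with all 9 libraries in 1 fit, 3 members with limma on log2(FPKM + 0.1), and 2 members and 512 genes at a log2 fold change of at least 1. That fold threshold left 1434 genes in SB431542 against iECDC, and 4 members and 1330 genes in SB431542 against pECDC. With libraries left out, members passing ranged from 2 to 9, 5 to 9 and 5 to 9 in the 3 comparisons, and genes from 1036 to 4467, 1707 to 8951 and 2453 to 9188. The highest gene counts arose without iECDC replicate 3 in the first comparison and without SB431542 replicate 2 in the third, and the causes were not tested. The replicate numbers did not pair the libraries (correlations of same-numbered deviations from −0.244 to 0.037). With a replicate block 6, 7 and 9 members and 1791, 3038 and 3886 genes passed, and Stat3 in SB431542 against iECDC did not. Depth limited Il33, at 0 to 2 counts in iECDC, and groups of 3 libraries limited all tests.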

Other observations

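Among 13 genes listed for NF-κB and inflammation, 9 were tested. In iECDC against pECDC 2 were higher and 0 lower, where 7.21% and 9.21% of all tested genes were. In SB431542 against iECDC 3 were higher and 3 lower, where 16.0% and 14.0% of all tested genes were. Against pECDC 5 were higher and 2 lower, where 17.9% and 17.0% were. Ptgs2, encoding the inducible cyclooxygenase, had 96.1 to 100.3 FPKM in pECDC, 190, 187 and 71.9 in iECDC and 2.71, 17.2 and 3.37 in the SB431542 libraries, which was a log2 fold change of −4.26 against iECDC (SE 0.764, edgeR adjusted p = 0.00641) and −3.65 against pECDC (SE 0.695, adjusted p = 0.00777). As for Il11 and Lif, iECDC replicate 3 was the lowest of its group and SB431542 replicate 2 the highest of its own. Csf1, a macrophage growth factor, was lower with SB431542 by −1.08 and −0.71 on the log2 scale, from means of 678 FPKM in iECDC and 525 in pECDC to 319. Nfkbia, the inhibitor of NF-κB, was higher by 0.90 and 1.12. Tnfaip3 was lower with SB431542 than in iECDC (−1.0, SE 0.166, edgeR adjusted p = 0.00473) and did not pass against pECDC (−0.22, adjusted p = 0.168). It was higher in iECDC than in pECDC (0.78, SE 0.135, edgeR adjusted p = 0.00532).

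The IL-1 receptor gene Il1r1 was lower in iECDC than in pECDC (log2 fold change −0.84, SE 0.101, edgeR adjusted p = 0.000757) and higher with SB431542, by 1.24 against iECDC (SE 0.125, adjusted p = 0.000912) and by 0.41 against pECDC (SE 0.0625, adjusted p = 0.00355). Its mean FPKM was 9.95 in pECDC, 5.62 in iECDC and 13.1 in the SB431542 libraries.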
